A study of Mus musculus with 6 samples.

Results

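The genes described here were 53 factors that build ribosomes in the nucleolus. They were picked by symbol, and they cover RNA polymerase I with its initiation factors, the box C/D and box H/ACA small nucleolar ribonucleoproteins (snoRNPs), nucleolar chaperones, and the processing factors of the small and the large ribosomal subunit. All 53 were among the 24421 gene symbols of the count table, and all 53 passed the filter on low counts, which left 15988 genes to test. The design text of the series names another cell line, which no sample label does, and it was set aside. RNA was sequenced from cochlear explants, the inner ear organ of hearing kept in culture, of wild-type mice at postnatal day 2. The explants were held in culture for 12 h, and the neomycin group (3 samples) was then exposed to 1 mM neomycin, an aminoglycoside that kills hair cells (HCs), for 6 h. Culture went on for 5 days in medium with 10 μM EdU, a thymidine analogue that marks cells in S phase. The control group (3 samples) is labelled as control, although the culture text of the labels names neomycin for every sample, so its explants are taken as kept without the drug. Each sample pooled the RNA of 6 to 8 cultured cochleae. The culture methods of the study took off the tectorial membrane, the modiolus and the anlage of the stria vascularis. A sample thus held HCs, supporting cells (SCs) and the other cells of the tissue that was left. No label says that the pools came from separate cultures, so p-values measure the spread between these samples, which may in part be technical.

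A ribosome starts in the nucleolus, where RNA polymerase I transcribes one long precursor of the ribosomal RNAs. Box C/D snoRNPs methylate that precursor and box H/ACA snoRNPs turn chosen uridines into pseudouridine, each guided by a small nucleolar RNA. The processome of the small subunit and the assembly factors of the large subunit then fold and cut the precursor and load ribosomal proteins, and the genes of this programme are known targets of MYC in growing cells.

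The 53 factors changed little after neomycin, and the changes did not run in one direction. At an adjusted p-value under 0.05 in edgeR's quasi-likelihood test, 4 factors rose (Nol7, Nhp2, Nop10 and Ebna1bp2) and 2 fell (Polr1a and Ddx21). Over all genes tested, 12.9% rose and 16.1% fell by the same rule. The 6 called factors are 11.3% of the 53, against 29.0% of all genes called in either direction. None of the 53 passed when a fold change over 1.5 was also asked for, as against 8.84% of all genes. At an unadjusted p under 0.05 there were 12 of the 53 factors and 6552 of the 15988 genes. DESeq2's Wald test called 6 factors higher and 1 lower at its adjusted p. Of the 15988 genes it called 2306 higher and 2645 lower.

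Fold changes of the 53 factors on the log2 scale, neomycin against control, ran from -0.46 to 0.50 with a median of 0.03. The median over all genes tested was 0.00. The sign was positive for 31 factors and negative for 22, and 40 of the 53 lay within 0.2 of 0. The median size of the fold change without its sign was 0.11 for the factors and 0.22 for all genes. For 49 of the 53 the whole 95% interval lay inside a 1.5-fold change either way. All neomycin values lay above all control values for 8 factors, as they did for 21.0% of all genes, and below them for 4 factors, as for 22.5% of all genes.

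**Figure D1:**
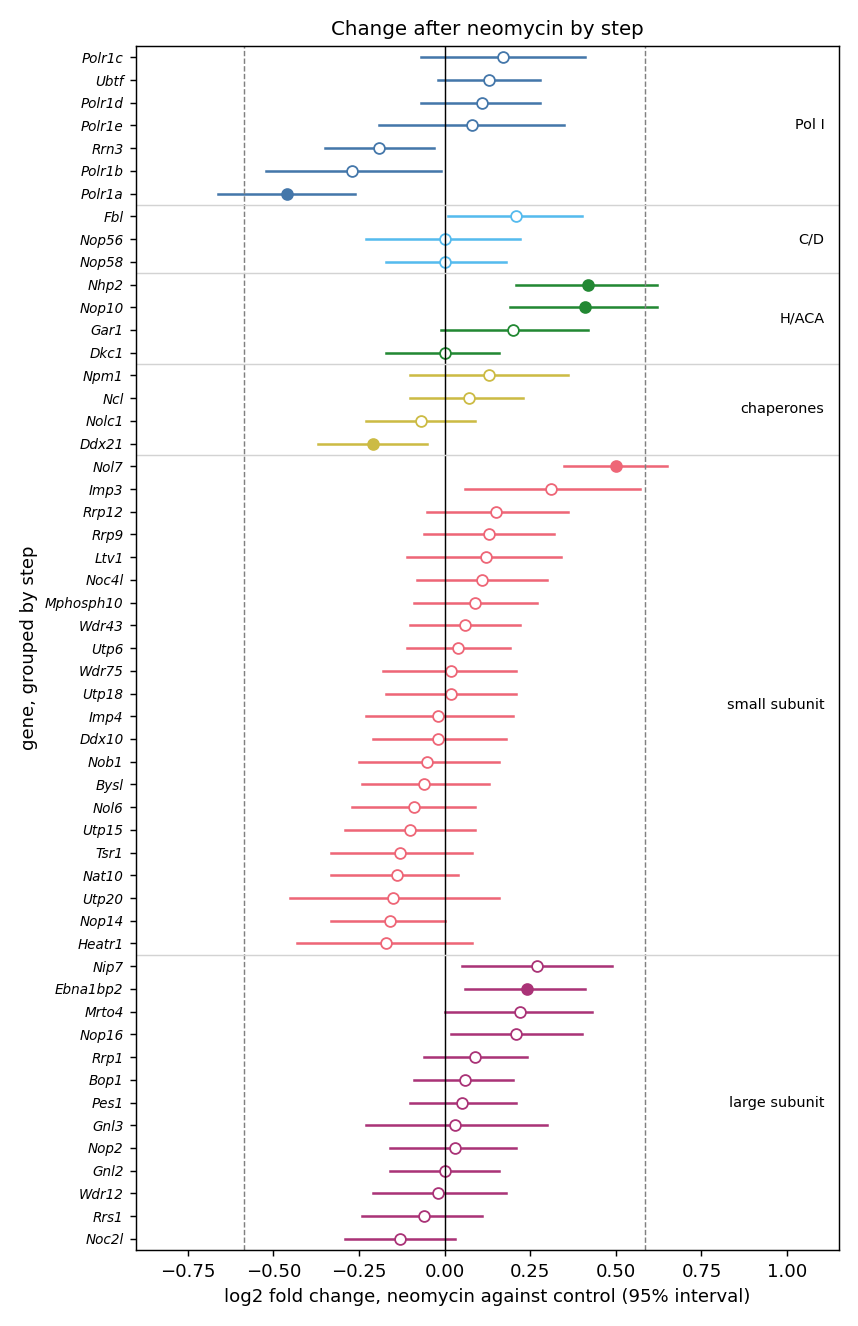
Log2 fold change of each of the 53 factors, neomycin against control (x axis), with genes on the y axis grouped by step. Circles are the fitted values, filled where the adjusted p-value was under 0.05 (6 factors), bars are 95% intervals, and dashed lines mark a 1.5-fold change; the filled circles lie between -0.46 (Polr1a) and 0.50 (Nol7).

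Levels are given as CPM, counts scaled to one common library size after TMM scaling. Summed over the 53 factors the level was 3001, 3264 and 3327 CPM in control samples 1 to 3 and 3248, 3460 and 3461 CPM in neomycin samples 1 to 3, so the groups overlapped. Control sample 1 had the lowest value of its group for 36 of the 53 factors (67.9%), where it was lowest for 35.0% of all genes. Neomycin sample 1 was the lowest of its group for 26 factors (49.1%), against 37.1% of all genes. Without control sample 1, 3 factors were called higher and 1 lower, with 20.2% of all genes called, and Ddx21 and Ebna1bp2 were no longer called. Without neomycin sample 2, 2 factors were called higher and 1 lower, with 15.6% of all genes called. Without control sample 3, 9 factors were called higher and 2 lower, with 33.0% of all genes called.

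**Figure D2:**
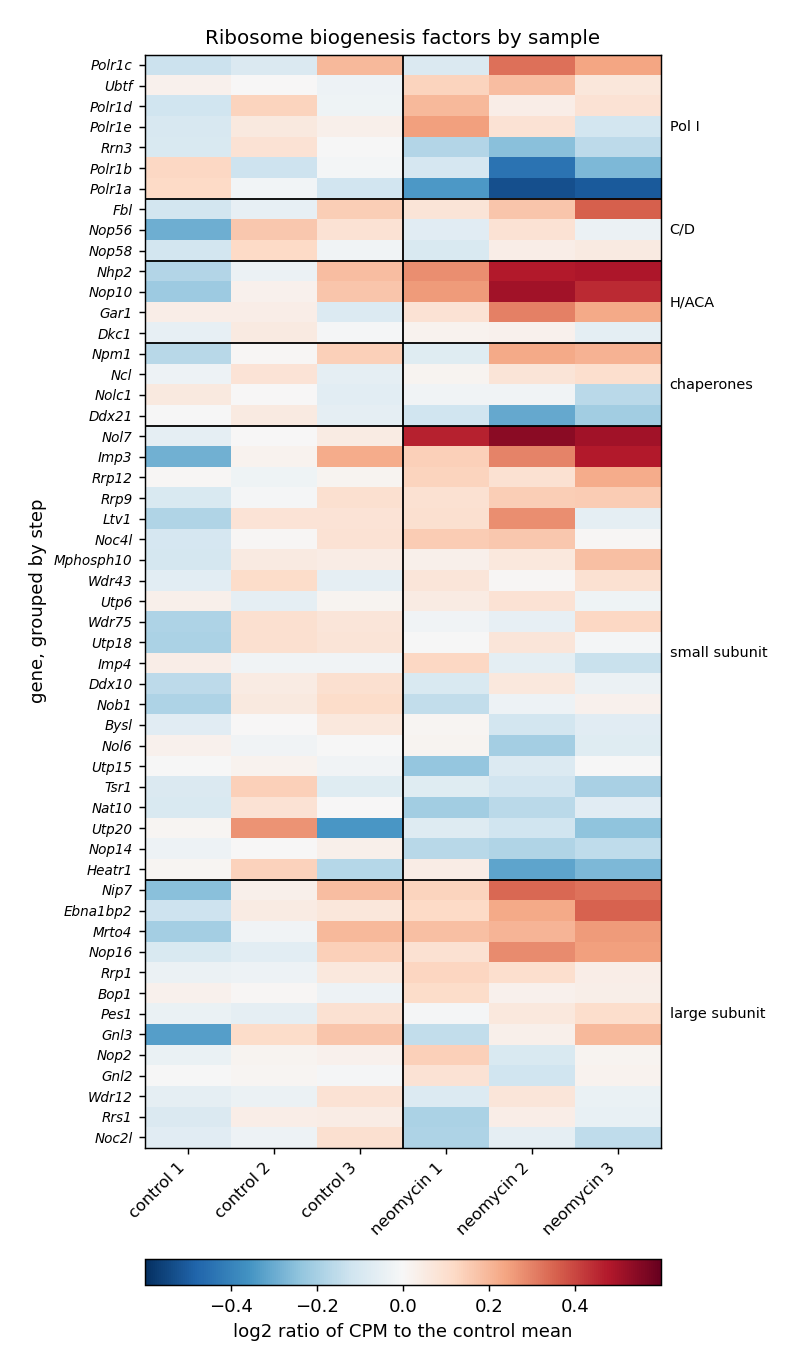
Log2 ratio of each factor's CPM to its mean in the control group, with the 6 samples on the x axis, the 53 factors on the y axis grouped by step, and the colour scale under the plot. Nhp2, Nop10 and Nol7 are high in every neomycin sample, Polr1a is low in every one, and control sample 1 is the lowest of its group for 36 factors.

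Promoter sequences are shown for the 6 called factors, so that those that rose and those that fell can be set side by side. They come from RefSeq (GRCm38.p6), read on the strand of the gene, and end at the base before the RefSeq start. For Nol7, Nhp2 and Ddx21 that start differs from the GENCODE start in the gene coordinates given further on. The Nhp2 window runs past the GENCODE start of that gene, at 51619735. A factor can have several promoters in RefSeq, which held 53 promoters for 45 of the 53 factors. Promoters not printed here were included in the counts below. Capitals mark CCGGAAG, a core letter string of ETS family sites, searched on both strands.
Nol7, chr13:43398276-43398375, plus strand: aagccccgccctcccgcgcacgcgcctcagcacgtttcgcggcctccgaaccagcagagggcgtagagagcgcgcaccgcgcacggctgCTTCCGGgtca
Nhp2, chr11:51619673-51619772, plus strand: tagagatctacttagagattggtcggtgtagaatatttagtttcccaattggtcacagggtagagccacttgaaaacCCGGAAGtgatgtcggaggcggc
Nop10, chr2:112261826-112261925, plus strand: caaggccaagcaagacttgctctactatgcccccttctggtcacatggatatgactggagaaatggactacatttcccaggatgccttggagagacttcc
Ebna1bp2, chr4:118620699-118620798, plus strand: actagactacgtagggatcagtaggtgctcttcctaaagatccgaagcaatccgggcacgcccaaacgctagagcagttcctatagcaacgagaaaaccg
Polr1a, chr6:71908953-71909052, plus strand: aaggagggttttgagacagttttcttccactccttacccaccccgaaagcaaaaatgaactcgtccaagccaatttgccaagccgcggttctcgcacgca
Ddx21, chr10:62602299-62602398, minus strand: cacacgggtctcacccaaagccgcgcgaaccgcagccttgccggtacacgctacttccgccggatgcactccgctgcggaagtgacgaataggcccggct

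In these windows the letters began at position -11 from the RefSeq start of Nol7, on the opposite strand, and at -23 in Nhp2. In Nhp2 they lay after the GENCODE start of the gene. Over the 250 bases before the start, CCGGAAG was found in 12 of the 53 promoters listed for 45 of the factors (22.6%). It was in 6.91% of all promoters in the table and in 11.5% of the promoters of genes tested here. By gene it was in 12 of the 45 factors (26.7%) and in 13.6% of genes tested that had a promoter. The 12 factors were Polr1c, Gar1, Nhp2, Nolc1, Nol7, Utp18, Heatr1, Mphosph10, Ltv1, Ddx10, Nop2 and Nip7. The E-box CACGTG, the letter string bound by MYC with MAX, was in 7.55% of the factors' promoters and 7.79% of those of genes tested. GGGCGG, the GC box, was in 58.5% against 54.5%, CCAAT in 28.3% against 34.3%, and TATAAA in 3.77% against 7.0%. The median log2 fold change of the 12 genes with CCGGAAG was 0.10, and that of the other factors with a promoter was 0.00. Over all genes tested with a promoter, the medians were 0.05 with these letters and -0.02 without. These counts are descriptions of letters, and no binding was measured.

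In the RNA polymerase I step, Polr1a, the largest catalytic subunit, fell and none of the 7 genes rose. Polr1a (ENSMUSG00000049553.11, chr6:71909053-71984935, plus strand, 34 exons) was at 33.2, 30.3 and 28.3 CPM in the control samples and at 24.1, 21.2 and 21.6 CPM after neomycin. Every neomycin value lay under every control value. The means were 30.6 ± 2.45 and 22.3 ± 1.58 CPM (SD, n = 3 each), a log2 fold change of -0.46 (SE 0.09, 95% interval -0.66 to -0.26, adjusted p = 0.00374 by edgeR). After a correction for the trend of fold change on exon length, described further on, it was -0.19 and no longer called (adjusted p = 0.0942). With lengths taken from all annotated exons it was -0.24 and called (adjusted p = 0.0338 in edgeR). Polr1b, the second-largest subunit, was at -0.27 on the log2 scale (adjusted p = 0.111), and its groups overlapped.

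The other genes of the RNA polymerase I step did not pass the test. Polr1c, a subunit shared with RNA polymerase III, had the highest fold change of the step: 52.7, 54.3 and 65.9 CPM in control and 54.2, 72.4 and 67.9 CPM after neomycin. These values overlapped, and the log2 fold change was 0.17 (95% interval -0.07 to 0.41, adjusted p = 0.27). Polr1d, also shared with RNA polymerase III, was at 0.11 and Polr1e at 0.08. Rrn3, which brings the polymerase to the promoter, was lower in every neomycin sample, at 44.0 to 47.0 CPM against 49.1 to 55.6 CPM in control, a difference of -0.19 on the log2 scale (adjusted p = 0.0666). Ubtf, which holds ribosomal DNA open for transcription, was the one gene of the step with neomycin above control in every sample, at 125 to 130 CPM and 134 to 145 CPM. Its log2 fold change was 0.13 (adjusted p = 0.171) and became 0.31 with the length correction, which was called (adjusted p = 0.00251).

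The box C/D proteins showed no called change. Fbl, the methyltransferase fibrillarin, was at 64.8, 67.6 and 77.7 CPM in control and at 73.8, 78.5 and 89.8 CPM after neomycin. The groups overlapped, and the log2 fold change was 0.21 (95% interval 0.01 to 0.40, adjusted p = 0.109), which passed the threshold when control sample 3 was left out (0.30, adjusted p = 0.0244). Nop56, a scaffold protein of the particle, was at 56.6, 77.5 and 73.6 CPM in control and 66.0, 73.6 and 67.6 CPM after neomycin, a difference of 0.00 on the log2 scale (95% interval -0.23 to 0.22, adjusted p = 0.986). Its sign depended on the scaling of the libraries, and its lowest sample was control 1. Nop58, the partner of Nop56, was at 57.6 ± 4.71 CPM in control and 57.7 ± 3.19 CPM after neomycin (SD, n = 3).

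The box H/ACA particle was the step with the highest median, at 0.31 on the log2 scale, with 2 of its 4 proteins higher and none lower. Over all genes tested, 12.9% were higher and 16.1% lower. Nhp2 and Nop10 are small core proteins of the particle, which is also part of telomerase. Nhp2 (ENSMUSG00000001056.3, chr11:51619735-51623714, plus strand, 4 exons) was at 41.5, 45.7 and 53.3 CPM in control and 56.8, 65.2 and 65.6 CPM after neomycin, and the groups did not overlap. Its log2 fold change was 0.42 (SE 0.10, 95% interval 0.21 to 0.62, adjusted p = 0.00733 by edgeR). Nop10 (ENSMUSG00000027133.3, chr2:112261926-112263269, plus strand, 2 exons) was at 65.5, 77.5 and 85.5 CPM in control and 90.8, 108 and 104 CPM after neomycin, again without overlap. It rose by 0.41 (SE 0.10, 95% interval 0.19 to 0.62, adjusted p = 0.00987 by edgeR), and without neomycin sample 2 it was at 0.36 and missed the threshold (adjusted p = 0.0601).

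The other proteins of the H/ACA particle did not pass the test. Gar1 was at 13.4 to 14.6 CPM in control and 15.1 to 17.5 CPM after neomycin, without overlap, and differed by 0.20 on the log2 scale (adjusted p = 0.14). Dkc1, dyskerin, the pseudouridine synthase itself, was at 32.2, 34.5 and 33.1 CPM in control and 33.8, 33.9 and 31.9 CPM after neomycin. Its log2 fold change was 0.00, with a 95% interval of -0.17 to 0.16, and its sign depended on the scaling of the libraries. The genes of Nhp2, Nop10 and Gar1 have exon lengths of 1042, 1109 and 1271 bp, among the shortest of the 53, and that of Dkc1 has 2804 bp. All genes tested of 924 to 2221 bp had a median of 0.19, with 27.2% called higher. With the length correction the median of the step was 0.03, and Nhp2 (0.11, adjusted p = 0.225) and Nop10 (0.11, adjusted p = 0.248) were no longer called.

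Of the nucleolar chaperones and the helicase, Ddx21 fell. Ddx21, a helicase that binds both ribosomal RNA and snoRNAs (ENSMUSG00000020075.8, chr10:62580251-62602281, minus strand, 15 exons), was at 61.6, 64.0 and 59.5 CPM in control and 56.8, 49.8 and 53.4 CPM after neomycin. The groups did not overlap, and the log2 fold change was -0.21 (SE 0.07, 95% interval -0.37 to -0.05, adjusted p = 0.0474 by edgeR). This call stood in 5 of 17 alternatives. With the length correction the log2 fold change was -0.10 (adjusted p = 0.298), and the adjusted p was between 0.0511 and 0.0693 with DESeq2, with DESeq2 size factors, with upper quartile scaling, with no filter on low counts and with the GC content correction. The call was also lost without control sample 1 (adjusted p = 0.0991), control sample 2 (0.169), neomycin sample 2 (0.215) or neomycin sample 3 (0.116). Npm1, nucleophosmin, which carries proteins and subunits through the nucleolus, was at 480, 542 and 595 CPM in control and 513, 632 and 622 CPM after neomycin. Its groups overlapped, and the log2 fold change was 0.13 (95% interval -0.10 to 0.36, adjusted p = 0.384). Nucleolin (Ncl) was at 0.07 and Nolc1, a chaperone of snoRNPs, at -0.07, neither called. With the length correction Ncl was called higher, at 0.32 (adjusted p = 0.00776).

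Among the 22 factors of the small subunit, Nol7 rose and no gene fell. Nol7 encodes a nucleolar protein of the small-subunit processome (ENSMUSG00000063200.4, chr13:43398390-43407097, plus strand, 8 exons). It was at 46.7, 48.6 and 50.2 CPM in control and at 66.7, 70.5 and 68.7 CPM after neomycin. The lowest neomycin sample was above the highest control sample, and the means were 48.5 ± 1.75 and 68.6 ± 1.90 CPM (SD, n = 3 each), 41.5% higher after neomycin. The log2 fold change was 0.50 (SE 0.07, 95% interval 0.35 to 0.65, adjusted p = 0.000316 by edgeR). Nol7 was the one factor called in all 17 alternatives, between 0.35 and 0.54, with a highest adjusted p of 0.00433. Ranbp9, whose exons overlap those of Nol7 on the opposite strand, was at 0.05 on the log2 scale (adjusted p = 0.648).

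The median of the small-subunit step was 0.00, with 11 genes positive and 11 negative. Heatr1, a large scaffold protein of the processome, had the lowest fold change of the step, at 18.5, 20.2 and 16.3 CPM in control and 18.9, 14.7 and 15.2 CPM after neomycin. The groups overlapped, and the log2 fold change was -0.17 (95% interval -0.43 to 0.08, adjusted p = 0.296), with a positive sign after the length correction (0.04). Imp3, Imp4 and Mphosph10 form a trimer bound to the U3 snoRNA, and their log2 fold changes were 0.31, -0.02 and 0.09. Imp3 came nearest to the threshold of these (adjusted p = 0.0655), and it has the shortest exon length of the 53, 924 bp. Rrp9, another protein of the U3 particle, was at 0.13. Nop14 was lower in every neomycin sample, at 25.2 to 25.7 CPM against 27.9 to 29.1 CPM, a difference of -0.16 on the log2 scale (adjusted p = 0.129). Rrp12, an export factor of the precursor, was higher in every neomycin sample, at 13.9 to 15.2 CPM against 12.8 to 13.2 CPM, with 0.15 (adjusted p = 0.246). Nob1, the endonuclease that makes the last cut of the small-subunit RNA, was at -0.05, and the late assembly factors Bysl, Ltv1 and Tsr1 were at -0.06, 0.12 and -0.13. Nat10, the acetyltransferase of ribosomal RNA, was at -0.14. Utp20, one of the longest genes of the set, had the widest spread of the step in control relative to its level, from 11.6 to 17.8 CPM.

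Among the 13 factors of the large subunit, Ebna1bp2 rose and no gene fell. Ebna1bp2, an early assembly factor (ENSMUSG00000028729.15, chr4:118620799-118627776, plus strand, 9 exons), was at 47.2, 53.3 and 53.9 CPM in control and 56.0, 60.2 and 65.7 CPM after neomycin. The groups did not overlap, and the log2 fold change was 0.24 (SE 0.08, 95% interval 0.06 to 0.41, adjusted p = 0.0472 by edgeR). The call stood in 11 of 17 alternatives. It was lost without control sample 1 (adjusted p = 0.148), control sample 2 (0.0863), neomycin sample 2 (0.125) or neomycin sample 3 (0.192). Nip7 had the highest fold change of the step, at 39.7, 48.1 and 53.7 CPM in control and 51.7, 59.8 and 59.1 CPM after neomycin. These values overlapped, and the log2 fold change of 0.27 (95% interval 0.05 to 0.49) did not pass (adjusted p = 0.0681). It was called without control sample 3 (0.39, adjusted p = 0.0114) and without neomycin sample 1 (0.33, adjusted p = 0.0377).

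Pes1, Bop1 and Wdr12 form one complex that is needed to process the large-subunit RNA, and their log2 fold changes were 0.05, 0.06 and -0.02. Bop1 had no overlap between groups, but by a narrow margin, with 44.7 to 46.4 CPM in control and 46.4 to 49.2 CPM after neomycin. Gnl2 and Gnl3, nucleolar GTPases of which Gnl3 (nucleostemin) is known from stem cells, were at 0.00 and 0.03. The largest spread of the step was that of Gnl3, with 37.1 CPM in control sample 1 and 50.4 and 52.4 CPM in the other control samples. Mrto4, a stand-in for a stalk protein during assembly, was at 0.22 and Nop16 at 0.21, both uncalled. Noc2l had the lowest fold change, at 56.4, 57.9 and 63.3 CPM in control and 52.0, 57.1 and 53.3 CPM after neomycin. Its groups overlapped, and the log2 fold change was -0.13 (95% interval -0.29 to 0.03, adjusted p = 0.209). Samd11, which overlaps Noc2l on the opposite strand, went from 1.09 to 0.221 CPM on average (log2 fold change -2.29, adjusted p = 0.00203).

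**Figure D3:**
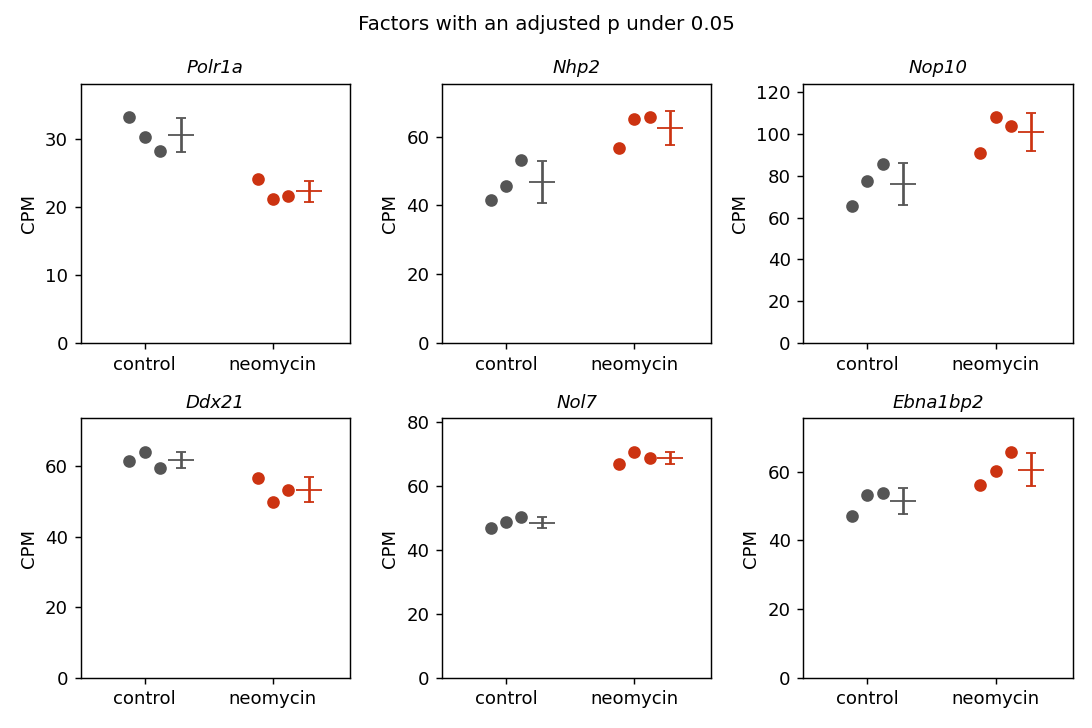
CPM (y axis, starting at 0) of the 6 factors with an adjusted p-value under 0.05 in each control and neomycin sample (x axis), with the mean and SD (n = 3) beside the points. In each of the 6 panels the groups do not overlap, and Nol7 has the widest gap relative to its spread, with means of 48.5 and 68.6 CPM.

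The median log2 ratio to the control mean was also taken over each step in each sample. For the H/ACA particle it was -0.11, 0.04 and 0.08 in control samples 1 to 3 and 0.17, 0.39 and 0.34 in neomycin samples 1 to 3. The median of the small-subunit factors was -0.07, 0.05 and 0.04 in control and 0.02, -0.01 and -0.01 after neomycin. For the large-subunit factors it was -0.07, 0.01 and 0.08 in control and 0.09, 0.07 and 0.04 after neomycin. In every step but H/ACA the medians of the control and the neomycin samples overlapped. The same median over the other biogenesis factors described further on was -0.07, 0.03 and 0.05 in control and 0.06, 0.14 and 0.12 after neomycin, and that over the cytosolic ribosomal proteins was -0.17, -0.02 and 0.19 in control and 0.13, 0.44 and 0.44 after neomycin.

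Between genes, levels were compared per kilobase of exon. In control, Npm1 was highest at 265 CPM per kb, ahead of Rrp1 (93.1), Imp3 (73.3), Nop10 (68.7) and Fbl (58.5). Utp20 was lowest at 1.67 CPM per kb, after Wdr12 (2.03) and Heatr1 (2.70). Length here is the union of exons over a gene's basic coding transcripts, which can exceed any one transcript, so the ranks depend on it. Nop56 (1907 bp) and Nop58 (9539 bp) were at 69.3 and 57.6 CPM in control, but at 36.3 and 6.04 CPM per kb. Wdr12 has the longest union, 10613 bp. Nol7 was at 26.1 CPM per kb in control and 36.9 after neomycin, and Polr1a at 3.32 and 2.42. Near-identical pseudogenes, as Npm1 has, can shift these levels, since how reads with several matches were counted is not given in the sources used here.

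Fold change and exon length moved together among the 53 factors. Across these genes, which are not independent replicates, Pearson's r between the log2 fold change and the log2 exon length was -0.633 and Spearman's rho was -0.622. Across the 15857 genes tested with both an exon length and a transcript GC content, r was -0.325 and rho -0.484. The 18 shortest factors (924 to 2221 bp) had a median log2 fold change of 0.15, with 15 positive, 3 called higher and 0 lower. All genes of that length range had a median of 0.19, with 27.2% called higher and 4.73% lower. The 18 longest factors (3582 to 10613 bp) had a median of -0.08, with 5 positive, 0 called higher and 2 lower. All genes of that range were at -0.15, with 3.93% called higher and 27.3% lower.

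When the trend on exon length was removed from each sample, the median of the 53 factors was -0.02, and 4 factors were called higher and 2 lower, where 1392 genes were higher and 1831 lower of 15862 (20.3% called). Among the 53 factors the trend was turned rather than removed, with a Pearson's r of 0.339 and a Spearman's rho of 0.291 between the corrected fold change and the log2 exon length. Nol7 (0.35, adjusted p = 0.000939) was in both sets of calls. The other 5 calls were lost, Ubtf, Nop58 and Ncl were called higher instead, and Nop14 and Nob1 lower. The sign changed for 19 of the 53 factors. These calls depended on how length was taken. On the comprehensive annotation, which takes all annotated exons of a gene, Polr1a stayed called (-0.24, adjusted p = 0.0338 in edgeR). There Nop58 and Nob1 were not called, Rrs1 and Noc2l were, and the sign changed for 11 factors. Ncl and Nop58 have some of the greatest exon lengths of the set, at 8202 and 9539 bp, as the union over their basic coding transcripts. Such a union can exceed any one transcript, and the length of the transcripts present was not measured. The cause of the trend on length was not tested.

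**Figure D4:**
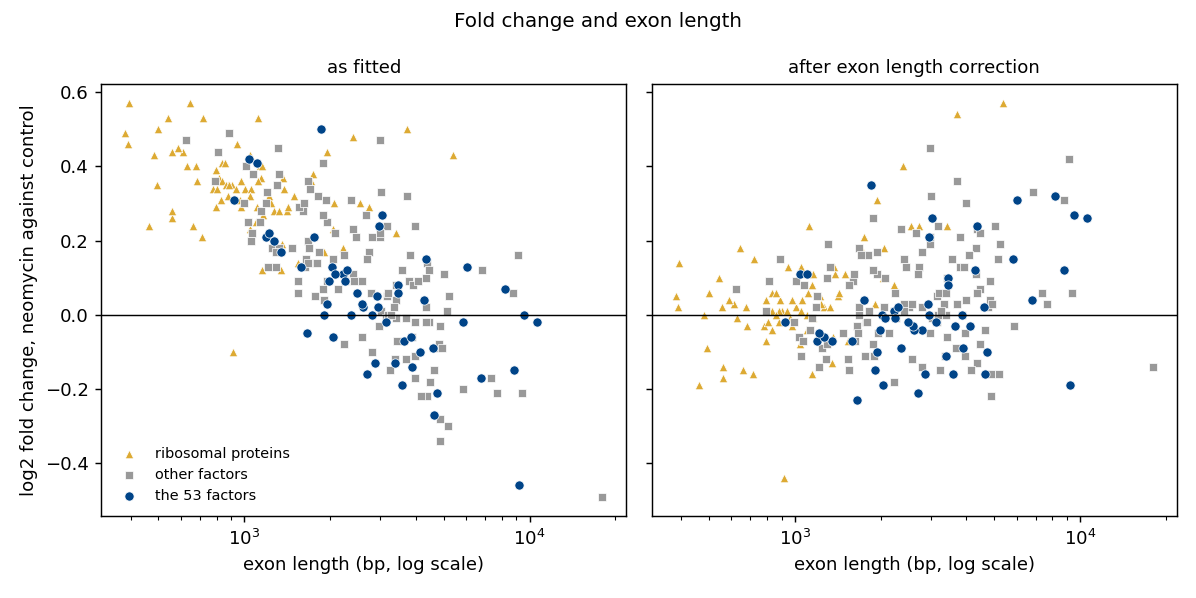
Log2 fold change, neomycin against control (y axis), against exon length in bp (x axis, log scale), as fitted (left) and after the exon length correction (right). Circles are the 53 factors, squares the other biogenesis factors and triangles the ribosomal proteins; the slope seen on the left (r = -0.633 for the 53 factors) is turned into a rise with length on the right (r = 0.339).

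A wider list of 128 other ribosome biogenesis factors, chosen for their role, was set beside the 53. Of these, 25 rose and 5 fell (23.4% called, against 29.0% of all genes tested), with a median log2 fold change of 0.11. The 3 largest rises were those of Polr2f, a small subunit shared by the nuclear RNA polymerases (0.49, adjusted p = 0.00188), C1d, a cofactor of the RNA exosome (0.47, adjusted p = 0.00103), and Polr2k, another shared polymerase subunit (0.47, adjusted p = 0.00304). The 3 largest falls were those of Mdn1, a giant ATPase of large-subunit assembly (-0.49, adjusted p = 0.0406), Rrp1b (-0.34, adjusted p = 0.0281) and Dhx33, a helicase (-0.30, adjusted p = 0.0472). Mdn1 and Dhx33 were no longer called without control sample 1 (adjusted p = 0.171 and 0.119), control sample 2 (0.121 and 0.17), neomycin sample 2 (0.151 and 0.12) or neomycin sample 3 (0.103 and 0.187). Rrp1b was no longer called without control sample 2 (adjusted p = 0.133), neomycin sample 1 (0.0619) or neomycin sample 2 (0.131). With the length correction 9 of the 128 were called higher and 0 lower, where 1392 of 15862 genes were higher and 1831 lower. The median of the 128 was then 0.03. C1d (0.45, adjusted p = 0.000567 in edgeR) was the one of the 6 named genes still called. With lengths from the comprehensive annotation Polr2f stayed called as well (0.38, adjusted p = 0.0023 in edgeR).

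Of the cytosolic ribosomal proteins, the cargo of this machinery, 44 of 79 rose and 0 fell (55.7% called, against 29.0% of all genes tested). Their median log2 fold change was 0.34. DESeq2's Wald test called 62 of them higher and 0 lower, where it called 2306 of the 15988 genes tested higher and 2645 lower. Their exon lengths had a median of 977 bp, against 2870 bp for the 53 factors. With the length correction 3 were called higher and 1 lower, where 20.3% of all genes were called, and the median was 0.03. Ribosomal protein genes have many near-identical pseudogenes, so their counts are uncertain.

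In the MYC network, 0 of 11 genes rose and 2 fell, where 12.9% of all genes tested rose and 16.1% fell. The median log2 fold change of the 11 was -0.08. Myc was at 15.3, 17.4 and 13.2 CPM in control and 13.5, 14.5 and 17.8 CPM after neomycin. These values overlapped, and the fold change was 0.00 on the log2 scale (95% interval -0.28 to 0.28, adjusted p = 0.995) and a sign that depended on the scaling. Mycn was at 22.1, 24.8 and 25.6 CPM in control and 25.4, 25.3 and 23.6 CPM after neomycin, at 0.04 (95% interval -0.16 to 0.23, adjusted p = 0.792). The 2 that fell were Mga (-0.28, adjusted p = 0.0419) and Mxd1 (-0.30, adjusted p = 0.0426), partners of MAX that oppose MYC. Leaving out any one sample but control 3 ended both calls, with adjusted p from 0.0514 to 0.196 for Mga and from 0.0667 to 0.196 for Mxd1. Neither was called with the length correction (Mga 0.04, adjusted p = 0.733, and Mxd1 -0.19, adjusted p = 0.169).

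Of the 53 factors, 7 hold snoRNA genes within their bounds on the same strand (Nop56, Nop58, Dkc1, Ncl, Wdr43, Tsr1 and Gnl3). None of these 7 was called, against 29.0% of all genes tested. Their log2 fold changes ran from -0.13 to 0.07, with 0 at an unadjusted p under 0.05 in edgeR and 0 called by DESeq2. With the length correction Nop58 and Ncl were called higher, and on the comprehensive annotation Ncl was called but Nop58 was not.

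The cell makeup of the explants changed beside these values. Of 10 HC markers, 9 fell, and their summed level was 457 to 598 CPM in control and 64.9 to 90.5 CPM after neomycin. Of 10 SC markers, 4 fell and 0 rose, with summed levels that overlapped (2450 to 2750 and 2470 to 3010 CPM). Of 8 endothelial markers 6 fell (281 to 315 and 267 to 317 CPM summed, most of it Emcn, which was not called), and of 8 neuronal markers 4 fell (104 to 181 and 72.1 to 82.5 CPM). Of 8 macrophage markers 4 rose and 0 fell (81.6 to 110.0 and 116 to 144 CPM). Of 8 mesenchymal markers 2 rose and 2 fell (5880 to 6420 and 6300 to 6510 CPM), and of 8 Schwann cell markers 1 fell (566 to 626 and 549 to 582 CPM). Of 10 genes of dividing cells 4 fell and 0 rose (295 to 340 and 273 to 315 CPM). Over all genes tested, 12.9% rose and 16.1% fell. No marker of these lists was at 0 in any sample. Whether these shifts have a part in the changes of the 53 factors was not tested, and in whole explants fewer cells of a type and less RNA per cell cannot be told apart. Total counts per sample ran from 50471116 to 66068108, and single factors had between 491 counts (Polr1e) and 37272 counts (Npm1) in a sample.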

How the data were processed

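Per the labels and the methods of the study, the authors called bases with CASAVA 1.8, trimmed reads with Trimmomatic 0.23, aligned them to mm10 with HISAT2 and counted them per gene symbol of the UCSC annotation with HTSeq; strand setting and treatment of reads with several matches are not given in the sources used here. The deposited values were raw counts, whole numbers with no normalization. Mouse explants gave 6 samples, 3 control and 3 neomycin, grouped by their treatment label, with 50471116 to 66068108 counts each. Such depth limits counting error only, and the spread between samples set the precision.

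From the counts, libraries were scaled by TMM, genes filtered with filterByExpr, and neomycin compared with control by the quasi-likelihood test of edgeR 4.0.16 in R 4.3.3, with Benjamini-Hochberg adjustment over 15988 genes and no covariate. SEs are the log2 fold change over the square root of F, and 95% intervals use a t quantile of 2.17. CPM are TMM-scaled. Exon lengths, exon overlaps and coordinates came from GENCODE M21 (GRCm38, the assembly of mm10). Lengths are the union of the exons of basic coding transcripts, with 99.2% of genes tested matched. The length correction removed from each sample the lowess trend (span 0.3) of its log2 ratio on log2 exon length. The code was tested on simulated data. Figures used matplotlib 3.10.9 in Python 3.11.15.

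The 53 factors and all gene lists were chosen with earlier results of these data known. Full values are given for factors with an adjusted p-value under 0.05 and for the highest and lowest fold change of each step, for the 3 largest called rises and falls of the other factors, and for Myc, Mycn and called genes of the MYC network. Lists were described by counts and medians with no set test. Alternatives were DESeq2 1.42.0, other scalings and filters, stricter thresholds, length and GC corrections, the replicate number as a block and each sample left out in turn. The length correction on the comprehensive annotation was chosen after seeing the data.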

Additional observations from a re-analysis of the deposited data

How the results depend on the processing

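Over the 17 alternatives per factor, Nol7 was called in every one, Polr1a in 15, Nhp2 in 14, Nop10 in 13, Ebna1bp2 in 11 and Ddx21 in 5. The median over the 53 factors stayed between -0.02 and 0.07. The cause of the shifts below was not tested.

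Against 4 factors called higher and 2 lower, the numbers moved as follows. Both DESeq2 size factors and upper quartile scaling in edgeR gave 4 higher and 1 lower, with 29.0% and 28.9% of all genes called. No filter on low counts and DESeq2's Wald test gave 6 and 1. Their shares called, 23.7% and 25.1%, are over 19825 genes, which include genes of low count that the main test left out. The GC content correction gave 4 and 1, with 29.7% of all genes called. The length correction on the comprehensive annotation gave 3 and 4, with 23.5% of all genes called. An adjusted p under 0.01 left 3 higher and 1 lower, and the share of all genes at that threshold was not counted. A fold change over 1.5 left 0 and 0, as against 8.84% of all genes. With one sample left out, 2 to 9 were called higher and 1 to 2 lower, with 15.6% to 33.0% of all genes called.

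With the replicate number as a block, 37.6% of all genes were called, and 9 factors were called higher and 4 lower. Polr1b, Rrn3, Fbl, Imp3, Nop16, Nip7 and Mrto4 were added. With the GC content correction as well, 9 factors were called higher and 3 lower, with 38.7% of all genes called. No label says that the numbers pair the samples. Over 15988 genes the deviations of same-numbered samples from their group means correlated at 0.129, 0.0192 and 0.0734. For samples of unlike number the values ran from -0.103 to 0.0271. Control 1 and control 3 correlated best with the neomycin sample of their own number, and control 2 with neomycin 3 (0.0271).

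With the length correction, 3 step medians moved by more than the spread between samples. For RNA polymerase I it went from 0.08 to -0.07 (-0.08 with the block), for the box H/ACA particle from 0.31 to 0.03 (0.03 with the block, 0.04 on the comprehensive annotation), and for the large subunit from 0.05 to -0.03 (-0.04 with the block). The box C/D median went from 0.00 to 0.20 on the comprehensive annotation. With one sample left out, the median of RNA polymerase I ran from -0.01 to 0.12 and that of the small subunit from -0.06 to 0.04.

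The length correction turned the sign of 19 of the 53 factors. Among them, Imp3 went to -0.02, Mrto4 to -0.05, Gar1 to -0.06, Rrp9 to -0.07, Gnl3 to -0.10, Bop1 to -0.02, Mphosph10 to -0.01, Imp4 to 0.15, Wdr12 to 0.26, Utp20 to 0.12 and Rrp1 to -0.04. Of the genes given in full, it turned Polr1c to -0.07 (-0.08 with the block), Fbl to -0.07 (-0.07), Heatr1 to 0.04 (0.04) and Mycn to 0.00 (0.00; -0.02 on the comprehensive annotation), and Npm1 with the block was at 0.00. Mga, called lower in the main test, was at 0.04 (0.04 with the block). Nop56 was at 0.00 with DESeq2 size factors and with DESeq2, 0.02 with upper quartile scaling, 0.01 with the block, and 0.02 with the GC content correction (0.03 with the block). Dkc1 was at 0.00, 0.02 and 0.00 with DESeq2 size factors, upper quartile scaling and DESeq2, and Myc at 0.00, 0.02 and 0.00, with 0.01 under the GC content correction and 0.01 with the block as well. With one sample left out, Nop56 ran from -0.12 to 0.09, Dkc1 from -0.02 to 0.03, Myc from -0.13 to 0.10 and Mycn from -0.02 to 0.09.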
